A study of Mus musculus with 6 samples.

Results

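Oxidative phosphorylation is carried out in the inner mitochondrial membrane by 5 protein complexes, and the genes for their subunits were compared between immortalized WT and AS podocytes. Members were the protein-coding genes of the count table whose GENCODE M21 symbol starts with a subunit name of complexes I to V, or with mt- followed by the name of a protein-coding mitochondrial gene. The rule took 99 of 57132 genes, of which 86 are nuclear and 13 are encoded in mitochondrial DNA. The rule uses no measured value, though it was chosen with earlier results of these data known.

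RNA from 3 samples of WT podocytes and 3 samples of AS podocytes was sequenced. Both lines came from male mice of 8 weeks and carry the H-2Kb-tsA58 transgene, a thermosensitive T antigen under the H-2Kb promoter that keeps cells dividing at 33 °C. The WT line is Col4a3+/+ and the AS (Alport syndrome) line lacks Col4a3, a chain of type IV collagen in the glomerular basement membrane. Neither line was treated. The sample records give growth with 20 U/mL interferon gamma and 14 days of differentiation at 37 °C, while the study's methods describe another medium, a lower dose and a shorter time. Each genotype was represented by a single line, so genotype and line cannot be told apart. Whether the 3 sets of a line were separate cultures is not stated, so p-values measure the spread between these samples, which may be technical.

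Total counts per library lay between 45417221 and 54290968. Col4a3 fell in AS podocytes, from a CPM (counts scaled to the TMM-corrected library size) of 938 to 1272 in WT to 61.2 to 82.9 in AS, which fits the labels. Among podocyte markers, Tcf21 had no count in any library, while Synpo was at 803 CPM in WT and 526 CPM in AS, and Wt1 at 20.6 CPM and 2.50 CPM. Summed endothelial markers stayed at or under 4.76 CPM and immune markers at or under 3.14 CPM, while fibroblast and mesangial markers summed to between 5766 and 7923 CPM in WT and between 6845 and 7950 CPM in AS. That sum is mostly Acta2 (6701 and 6759 CPM), while Col1a1 went from 24.3 to 477 CPM and Pdgfrb from 253 to 116 CPM, and Lum had no count. Tubule markers summed to between 373 and 419 CPM in WT and between 275 and 386 CPM in AS. Only 2 of the 6 tubule markers had enough counts to be tested, and Aqp2 and Umod had no count. Parietal epithelial markers summed to between 384 and 469 CPM in WT and between 329 and 352 CPM in AS. The part of these markers in the results was not tested. Across all genes, the chi-square per degree of freedom between WT libraries was 47.2 and 49.5 for the pairs with WT 1 and 9.73 for WT 2 with WT 3, so WT 1 stood apart. Between AS libraries it was 18.6 to 22.2.

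Complex I passes electrons from NADH, and complex II (succinate dehydrogenase) from succinate, to coenzyme Q. Complex III hands them to cytochrome c and complex IV to oxygen, and the protons pumped on the way drive ATP synthesis by complex V. Mitochondrial DNA codes for subunits at the core of complexes I, III, IV and V, whereas complex II is wholly nuclear. The remaining subunits are made in the cytosol and imported, so each of those complexes needs transcripts from both genomes. Podocytes are postmitotic cells with foot processes that wrap the glomerular capillaries, and they make ATP both by glycolysis and in mitochondria.

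Transcripts of nuclear subunits were at nearly the same level in AS when compared to WT podocytes, and in no complex did the summed nuclear levels of the 2 lines separate. Summed over the 86 nuclear members, the level was 5389, 5703 and 5578 CPM in the WT libraries and 5498, 5698 and 5464 CPM in the AS libraries. The means were 5557 ± 158 CPM and 5553 ± 127 CPM (SD, n = 3 each). The 2 ranges overlapped, and the SD within a line was larger than the difference between the lines.

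By complex, the summed nuclear level in AS over WT was 1.01 for complex I (1390 ± 47.5 CPM in WT, 1406 ± 39.1 CPM in AS), 0.978 for complex II and 0.959 for complex III. It was 1.00 for complex IV (1155 ± 55.7 CPM and 1156 ± 20.0 CPM) and 1.00 for complex V (2142 ± 62.1 CPM and 2151 ± 55.4 CPM). The libraries of the 2 lines overlapped in the sum of all 5 complexes. Complex III came nearest to a separation, at 530.0, 540.4 and 549.9 CPM in WT and 506.1, 530.6 and 516.8 CPM in AS, where only AS 2 lay above the lowest WT library.

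**Figure D1:**
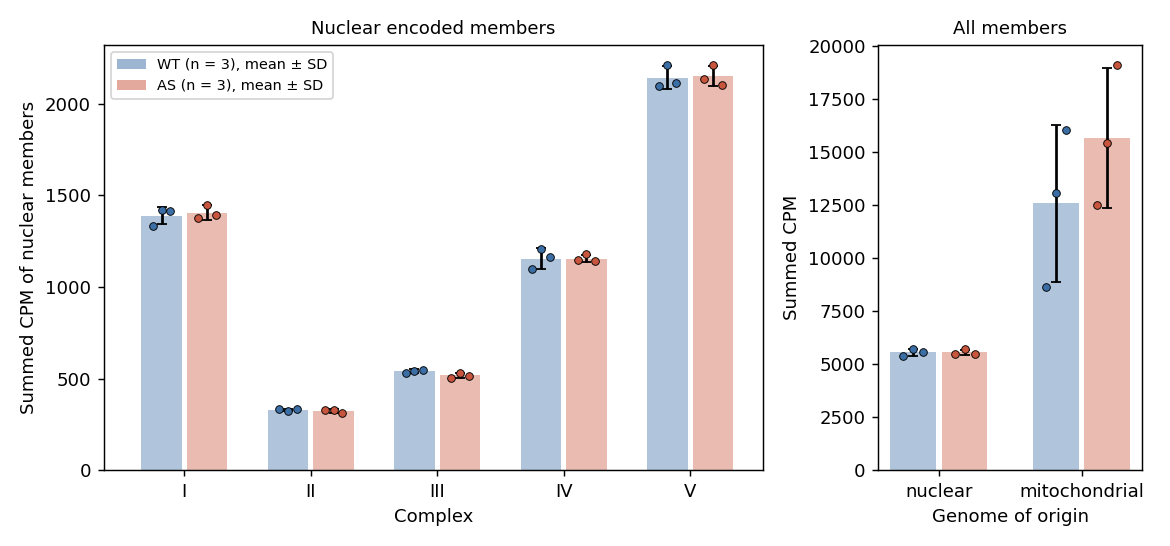
Summed CPM of the nuclear members of each complex (left) and of all nuclear and all mitochondrially encoded members (right), with bars for the mean of 3 libraries, error bars for the SD and points for single libraries. Nuclear sums are alike in WT and AS, 5557 and 5553 CPM, while the mitochondrially encoded sums range from 8660 to 16027 CPM in WT and from 12489 to 19114 CPM in AS.

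Gene by gene, 78 of the 86 nuclear members passed the low-count filter, and edgeR's quasi-likelihood test called 24 of them, or 30.8%, at an adjusted p under 0.05. Over all 16263 genes tested the share called was 40.1%. Among the 10885 genes whose level lay within the range of the nuclear members it was 46.1%. In AS podocytes 14 members were higher and 10 were lower, where 20.4% of all genes were higher and 19.6% were lower. The CPM of the 2 lines did not overlap in 42 of the 78 members, or 53.8%, close to the 52.3% of all genes. The median log2 fold change was -0.03, and 76 of 78 members lay within 0.5 of 0 on the log2 scale (97.4%, against 69.5% of all genes). The median size of the change was 0.13 on the log2 scale, against 0.28 over all genes. For these sizes of change, all genes were not restricted to the level of the members. Only Ndufs5 and Cox6b2 lay further out, and the other members ran from -0.39 to 0.42.

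With each library left out in turn, 12 of the 24 calls passed every time and 12 were lost at least once. The same share over all called genes is not given here. Those that passed were Ndufs5, Ndufs7, Ndufa12 and Ndufa6 of complex I, Uqcrh, Uqcrb and Uqcrc1 of complex III, Cox6b2, Ndufa4, Cox4i1 and Cox7c of complex IV and Atp5l of complex V. Ndufv1, Ndufa13, Ndufb7, Ndufb9, Sdhd, Uqcr10, Uqcrc2, Cox5a, Cox6c, Atp5f1 and Atp5g2 lost the call for 4 or 5 of the 6 libraries left out, and Cox7b for each of the 6. The highest adjusted p in these fits was 0.169, for Ndufb9 (edgeR).

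**Figure D2:**
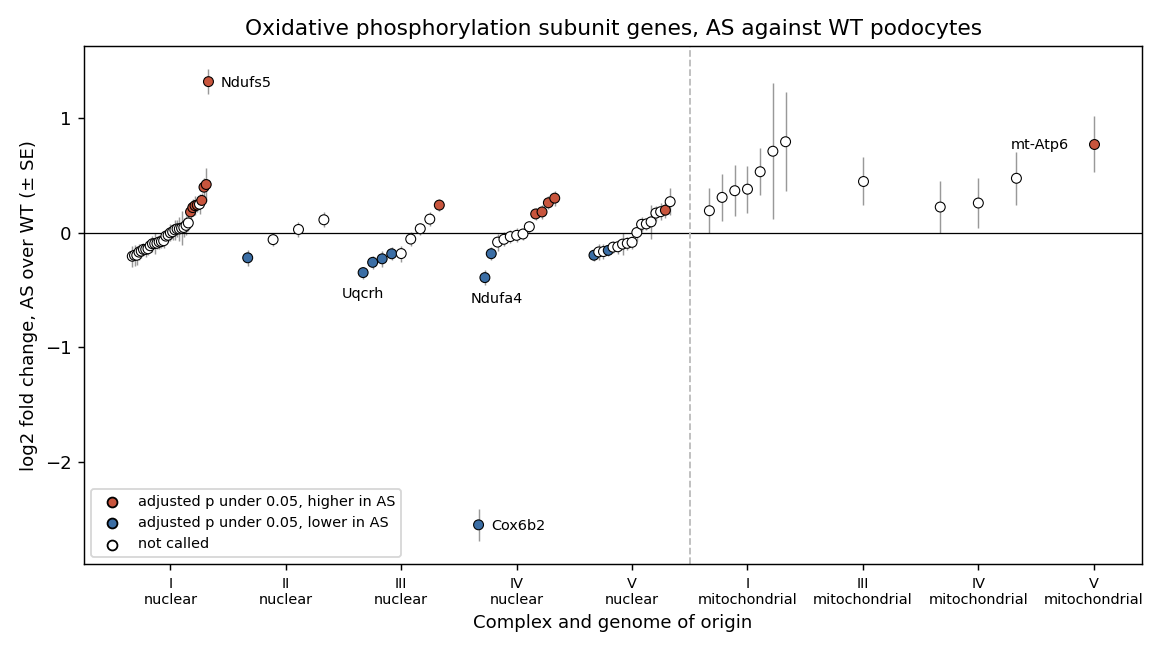
Log2 fold change (AS over WT, with its standard error) of every member tested, by complex and by genome of origin. Filled points passed an adjusted p of 0.05 in edgeR's quasi-likelihood test. Nuclear members lie close to 0 apart from Ndufs5 at 1.32 and Cox6b2 at -2.55, and the 12 mitochondrially encoded members all lie above 0.

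In complex I, 8 of 35 nuclear members were higher in AS podocytes in edgeR's test (22.9%, against 20.4% of all genes). None was lower in edgeR's test, DESeq2 or limma-voom, where edgeR called 19.6% of all genes lower. At an unadjusted p under 0.05, 6 were lower in edgeR. The 8 higher members were Ndufs5, Ndufs7, Ndufa12, Ndufa6, Ndufv1, Ndufa13, Ndufb7 and Ndufb9. Ndufs7 and Ndufv1 belong to the 7 core subunits that bind flavin or iron-sulfur clusters, and the other 6 to the 28 accessory subunits around them. The median of the 35 was 0.00 on the log2 scale, since 18 members that were not called had values below 0, the lowest Ndufc1 at -0.21 (SE 0.09).

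Ndufs7, which binds the last iron-sulfur cluster before coenzyme Q, was at 22.6, 25.6 and 24.9 CPM in WT and 31.0, 35.0 and 30.2 CPM in AS. All AS libraries lay above all WT libraries. The log2 fold change was 0.40 (SE 0.08, adjusted p = 0.00398, edgeR). Ndufa12, an accessory subunit of the peripheral arm, was at 42.6, 45.9 and 42.1 CPM in WT and 51.1, 54.4 and 53.2 CPM in AS, again without overlap, with a log2 fold change of 0.28 (SE 0.06, adjusted p = 0.00544, edgeR).

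Ndufs5, an accessory subunit of the membrane arm, showed the largest rise of the nuclear members, but its transcript has a close copy in the genome. The copy is the processed pseudogene BC002163 on chromosome 16, which matches 319 bases of the Ndufs5 transcript (gene on chromosome 4) at 99.4% identity. The first 300 coding bases in GENCODE M21 are shown because reads from this stretch can be placed on either gene except where they cross the 2 differing bases, in capitals.
Ndufs5: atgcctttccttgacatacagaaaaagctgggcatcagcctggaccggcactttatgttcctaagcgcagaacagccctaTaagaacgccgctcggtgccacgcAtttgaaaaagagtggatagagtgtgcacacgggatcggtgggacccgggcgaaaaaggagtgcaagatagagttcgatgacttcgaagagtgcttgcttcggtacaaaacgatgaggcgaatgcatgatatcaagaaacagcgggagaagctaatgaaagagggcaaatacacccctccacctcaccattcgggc
BC002163: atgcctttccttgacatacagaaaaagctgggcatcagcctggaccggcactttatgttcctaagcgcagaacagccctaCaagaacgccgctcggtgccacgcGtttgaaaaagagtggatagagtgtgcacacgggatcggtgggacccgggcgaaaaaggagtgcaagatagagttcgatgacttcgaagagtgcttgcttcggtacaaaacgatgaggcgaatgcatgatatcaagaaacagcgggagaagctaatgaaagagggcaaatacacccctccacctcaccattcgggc
Counted from 1 at the A of the start codon, with the Ndufs5 base first, the differences are T81C and A105G. In the whole match of 319 bases, which extends past the stretch shown, the longest run without a difference is 214 bases.

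The count assigned to Ndufs5 was 7.08, 7.84 and 7.63 CPM in WT and 16.7, 20.6 and 18.8 CPM in AS. The log2 fold change was 1.32 (SE 0.11, adjusted p = 1.48e-05, edgeR). BC002163 moved the other way, from 22.4, 21.6 and 21.7 CPM in WT to 8.79, 9.57 and 10.3 CPM in AS (log2 fold change -1.19, SE 0.09, adjusted p = 8.44e-06, edgeR). In both genes all AS libraries lay on one side of all WT libraries.

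The sum of both was 29.4 ± 0.0608 CPM in WT and 28.3 ± 2.46 CPM in AS (SD, n = 3 each), and with the copy's counts added the log2 fold change of Ndufs5 was -0.06 (SE 0.08, adjusted p = 0.596, edgeR). The counts were thus divided differently between the gene and its copy in the 2 lines, while the difference of their totals was not called. Which bases the reads carried at the 2 differing positions was not tested.

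**Figure D3:**
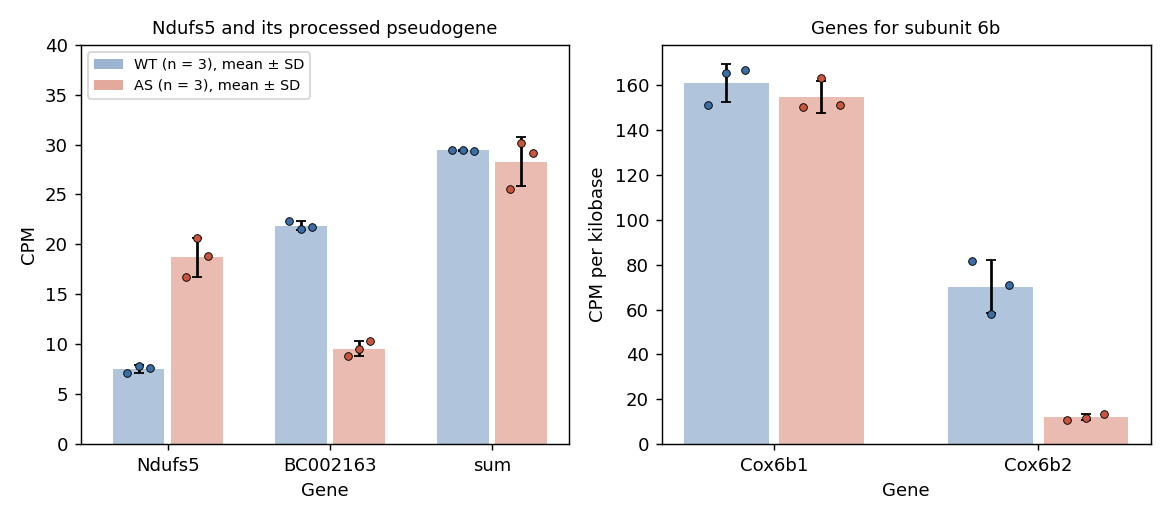
Left, CPM of Ndufs5, of its processed pseudogene BC002163 and of their sum. Right, CPM per kilobase of Cox6b1 and Cox6b2. Bars are means of 3 libraries, error bars the SD and points single libraries. Ndufs5 and BC002163 change in opposite directions while their sum stays near 29.4 CPM in WT and 28.3 CPM in AS, and Cox6b2 is lower in all AS libraries while the lines overlap in Cox6b1.

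Matching pseudogenes are common among these genes: 35 nuclear members had at least 1 pseudogene transcript with 90% identity over 100 bases or more, 103 pseudogenes in all. Most took few counts. Ndufa12 has a copy on chromosome 5, Gm15920, 99.5% identical over 402 bases, which went from 0.257 CPM in WT to 2.78 CPM in AS. With it added, the Ndufa12 change was 0.35 on the log2 scale (adjusted p = 0.00168, edgeR). Cox7a2l, which joins complexes III and IV into supercomplexes, has the copy Gm6969, which held 34.2 ± 1.67 CPM in WT and 32.2 ± 2.06 CPM in AS, beside 58.1 ± 3.52 and 57.2 ± 1.28 CPM of the gene itself (SD, n = 3 each), and neither gene nor sum was called.

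In complex II, Sdhd was lower and Sdha, Sdhb and Sdhc were not called. Sdhd, which anchors the enzyme in the membrane together with Sdhc, was at 47.2, 50.1 and 54.2 CPM in WT and at 43.4 ± 1.88 CPM (SD, n = 3) in AS, where all libraries lay below all WT libraries. The log2 fold change was -0.22 (SE 0.07, adjusted p = 0.0308, edgeR), and the call was lost without WT 2, WT 3, AS 1 or AS 3, with an adjusted p of up to 0.120. Its partner Sdhc was at 67.8 ± 3.52 CPM in WT and 73.4 ± 4.06 CPM in AS (SD, n = 3 each), and the log2 fold change was 0.11 (SE 0.06, adjusted p = 0.196, edgeR). The flavoprotein gene Sdha (-0.06, SE 0.06) and the iron-sulfur protein gene Sdhb (0.03, SE 0.06) were within about 1 standard error of 0.

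In complex III, 4 of 9 members were lower and 1 was higher (55.6% called, against 40.1% of all genes). Those that fell were Uqcrh, Uqcrb and Uqcr10, small subunits of the complex, and Uqcrc2, a core subunit. The member that rose was Uqcrc1, the partner of Uqcrc2 in the core dimer. The median of the 9 was -0.18 on the log2 scale, the lowest of the 5 complexes.

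Uqcrh, the hinge protein near the cytochrome c site, was at 61.7, 63.0 and 63.1 CPM in WT and 48.4, 50.4 and 48.8 CPM in AS. Its log2 fold change was -0.35 (SE 0.05, adjusted p = 0.000771, edgeR), and the 2 lines were well apart. Uqcrb was at 45.8, 43.5 and 46.1 CPM in WT and 37.8, 37.0 and 38.3 CPM in AS (log2 fold change -0.26, SE 0.06, adjusted p = 0.00617, edgeR). Uqcr10 followed at -0.23 (SE 0.07) and Uqcrc2 at -0.18 (SE 0.06), both without overlap. These calls were lost without WT 3, AS 1 or AS 2, that of Uqcr10 also without WT 2 and that of Uqcrc2 also without AS 3, with an adjusted p of up to 0.0774 and 0.117 (edgeR).

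Uqcrc1 and Uqcrc2 are both part of the same core, yet they moved in opposite directions. Uqcrc1 was at 95.9, 102.0 and 100.3 CPM in WT and 114.1, 122.4 and 115.7 CPM in AS. Its log2 fold change was 0.24 (SE 0.05, adjusted p = 0.00611, edgeR). Cyc1, which carries the heme that reduces cytochrome c (0.03, SE 0.05), and Uqcrfs1, the Rieske iron-sulfur protein (-0.06, SE 0.06), were not called.

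In complex IV, 13 of 20 nuclear members passed the filter, 4 of them higher and 3 lower (53.8% called, against 40.1% of all genes). The 7 that did not pass are forms of subunits known from other tissues. Cox7b2 had no count, Cox8b 1 count and Cox8c 6 counts over the 6 libraries, and Cox4i2, the form that replaces Cox4i1 in lung and in hypoxia, had 3 counts in each line. The muscle forms Cox6a2 (9 and 10 counts over 3 libraries of WT and AS) and Cox7a1 (11 and 3 counts) and the hypoxia-induced Ndufa4l2 (28 and 13 counts) were also near 0. In complex V, a second Atp5o identifier had no count. None of these forms held more than 0.142% of its subunit's level per kilobase in a library, apart from Cox7a1 at up to 0.232%.

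Cox6b2 was the exception. Subunit 6b binds the side of the enzyme where cytochrome c docks, and Cox6b2 is its testis form. Cox6b2 was at 38.0, 27.0 and 33.0 CPM in WT and 5.06, 5.39 and 6.29 CPM in AS, so the lowest WT library was far above the highest AS library. The log2 fold change was -2.55 (SE 0.14, adjusted p = 1.22e-06, edgeR). Cox6b1, the ubiquitous form, was at 93.5, 102.1 and 103.0 CPM in WT and 92.8, 100.7 and 93.3 CPM in AS, with a log2 fold change of -0.06 (SE 0.06, adjusted p = 0.487, edgeR).

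Per kilobase of transcript, Cox6b2 made up 35.1%, 26.0% and 29.9% of the 2 forms in WT and 6.76%, 6.64% and 8.22% in AS. The means were 30.3 ± 4.57% and 7.20 ± 0.880% (SD, n = 3 each). The 2 genes both lie on chromosome 7, where the median log2 fold change of other genes was -0.01. Their RefSeq promoter windows in GRCm38.p6, 250 bases before to 50 bases after the start, are shown because the forms share a chromosome but not a level. Cox6b1 is at chr7:30626065-30626364 and Cox6b2 at chr7:4753045-4753344, both on the minus strand. Capitals mark matches to the 3 motifs searched on both strands, GCGCANGCG (nuclear respiratory factor 1), CCGGAAG (GABPA, also called nuclear respiratory factor 2) and AAGATGGCG (YY1). Matches of the same motif that overlap were counted once, and the last 2 motifs can share the letters AAG.
Cox6b1: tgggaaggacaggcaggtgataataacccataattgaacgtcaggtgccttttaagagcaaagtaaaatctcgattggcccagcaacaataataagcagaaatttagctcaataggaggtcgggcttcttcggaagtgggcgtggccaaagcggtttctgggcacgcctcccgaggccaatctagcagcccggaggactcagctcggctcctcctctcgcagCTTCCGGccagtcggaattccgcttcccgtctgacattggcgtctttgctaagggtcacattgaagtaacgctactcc
Cox6b2: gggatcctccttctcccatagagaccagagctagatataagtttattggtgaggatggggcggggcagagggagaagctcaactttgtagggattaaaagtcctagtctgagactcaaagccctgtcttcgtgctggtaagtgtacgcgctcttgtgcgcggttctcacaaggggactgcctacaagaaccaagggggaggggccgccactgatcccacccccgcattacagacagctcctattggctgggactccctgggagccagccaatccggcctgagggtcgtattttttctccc
The Cox6b1 window held 1 match, to the GABPA letters on the minus strand of the window, and the Cox6b2 window held none of the 3.

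The other lower members of complex IV were Ndufa4 and Cox5a. Ndufa4, named for complex I but a subunit of complex IV, was at 128.0, 149.4 and 137.3 CPM in WT and 106.0, 106.3 and 103.8 CPM in AS (log2 fold change -0.39, SE 0.06, adjusted p = 0.00110, edgeR). No AS library reached the lowest WT library. Cox5a, which belongs to the first nuclear subunits to join the complex, changed by -0.18 (SE 0.06, adjusted p = 0.0334, edgeR), and its call was lost without WT 2, WT 3, AS 1 or AS 3 (adjusted p up to 0.113).

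The 4 higher members were Cox4i1, Cox7c, Cox6c and Cox7b. Cox4i1, which binds ATP and ADP as a regulatory subunit, was at 184.4, 213.2 and 202.5 CPM in WT and 249.5, 249.6 and 240.1 CPM in AS. All AS libraries lay above all WT libraries, with a log2 fold change of 0.30 (SE 0.06, adjusted p = 0.00506, edgeR). Cox7c was at 51.4 ± 0.660 CPM in WT and 61.6 ± 3.05 CPM in AS (SD, n = 3 each), and the log2 fold change was 0.26 (SE 0.06, adjusted p = 0.00606, edgeR). Cox6c (0.18, SE 0.06) and Cox7b (0.16, SE 0.05) moved less, and their calls were lost on leaving out each library except WT 2 for Cox6c and each of the 6 for Cox7b, with an adjusted p of up to 0.140 and 0.124 (edgeR).

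Complex V had the smallest share of called members, 17.6% of those tested, against 40.1% of all genes. Of its 18 nuclear members 17 were tested, Atp5l and Atp5f1 were lower and Atp5g2 was higher. Atp5l (subunit g) was at 85.7, 84.1 and 81.3 CPM in WT and 72.3, 73.8 and 73.1 CPM in AS, a log2 fold change of -0.20 (SE 0.05, adjusted p = 0.0124, edgeR). Atp5f1 (subunit b of the stalk) changed by -0.15 (SE 0.05, adjusted p = 0.0314, edgeR), a call lost on leaving out each library except WT 1 (adjusted p up to 0.125). Per kilobase, Atp5b, the catalytic beta subunit, was the most abundant nuclear member of all, at 363 CPM per kilobase in WT and 408 CPM per kilobase in AS, a difference that was not called (adjusted p = 0.0644, edgeR).

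The c subunit of the ATP synthase rotor is made from 3 genes that code for the same mature protein. Atp5g2 was at 49.8, 57.1 and 49.6 CPM in WT and 57.6, 61.2 and 60.4 CPM in AS (log2 fold change 0.20, SE 0.07, adjusted p = 0.0483, edgeR), and this call was lost on leaving out each library except WT 2 (adjusted p up to 0.156). Atp5g1 (-0.17, SE 0.07, adjusted p = 0.0781, edgeR) and Atp5g3 (-0.08, SE 0.06, adjusted p = 0.291, edgeR) were not called. Per kilobase, Atp5g2 was 30.1 ± 1.80% of the 3 in WT and 34.8 ± 0.263% in AS, Atp5g1 was 26.5 ± 1.20% and 23.9 ± 0.337%, and Atp5g3 was 43.4 ± 2.53% and 41.3 ± 0.594% (SD, n = 3 each).

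Transcripts from mitochondrial DNA were higher on average in AS podocytes, but the libraries of the 2 lines overlapped. The 13 genes took 0.843%, 1.31% and 1.60% of all counts in WT and 1.24%, 1.57% and 1.94% in AS. The means were 1.25 ± 0.380% and 1.58 ± 0.350% (SD, n = 3 each), a log2 ratio of 0.34. WT 1 lay below all other libraries, and the other WT libraries lay between the lowest and the highest AS library. Without WT 1 the log2 ratio was 0.12, and leaving out each library in turn gave values up to 0.56, without WT 3. In bulk RNA, fewer cells of a kind and less RNA per cell cannot be told apart.

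Set against the nuclear members of the same complex, mitochondrially encoded CPM was 3.07, 4.36 and 5.22 times the nuclear CPM of complex I in WT and 4.34, 5.01 and 6.42 times in AS. In complex III, where mt-Cytb is the sole mitochondrial gene, it was 3.09, 4.36 and 5.27 times in WT and 4.87, 5.74 and 7.53 times in AS. In complex IV it was 2.67, 3.77 and 4.93 times in WT and 3.53, 4.32 and 5.50 times in AS. In all 3, WT 1 was the lowest and AS 3 the highest library, and the lines overlapped.

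Of the 13 genes 12 were tested, and all had a log2 fold change above 0, from 0.19 for mt-Nd5 to 0.79 for mt-Nd3. Since they are read from common precursor transcripts, they do not count as separate observations. edgeR called only mt-Atp6, or 8.33% of the 12, against 40.1% of all genes. mt-Atp6 was at 1.36, 1.62 and 1.69 CPM in WT and 1.89, 2.69 and 3.40 CPM in AS (log2 fold change 0.77, SE 0.25, adjusted p = 0.0309, edgeR). This call was lost on leaving out each library except AS 1 (adjusted p up to 0.130). Without the low-count filter 6 of the genes were called, and the share of all genes called in that fit is not given here. mt-Cytb, the catalytic core of complex III, was at 1635, 2358 and 2897 CPM in WT and 2466, 3045 and 3893 CPM in AS (log2 fold change 0.45, SE 0.21, adjusted p = 0.118, edgeR). mt-Co1, the catalytic core of complex IV and the most abundant member, was at 2922, 4545 and 5721 CPM in WT and 4049, 5085 and 6264 CPM in AS (log2 fold change 0.22, SE 0.23, adjusted p = 0.473, edgeR). Without WT 1, the log2 fold changes of mt-Nd5 and mt-Co1 were -0.01 and -0.00067, so their direction rests on that library.

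Relative to each other, 5 mitochondrial genes separated the lines. Separation was common in these data, since the CPM of the lines did not overlap in 52.3% of all genes, though CPM is another measure. Shares of a total also depend on each other, so a rise in some goes with a fall in others. mt-Nd2 made up 9.67%, 9.83% and 9.54% of mitochondrially encoded counts in WT and 11.4%, 11.3% and 11.1% in AS. mt-Cytb went from 18.3 ± 0.488% to 20.0 ± 0.353%, while mt-Co1 went from 34.7 ± 0.976% to 32.7 ± 0.293% and mt-Nd5 from 16.7 ± 0.280% to 15.4 ± 0.528% (SD, n = 3 each). In these 4 genes, and in mt-Nd6 (0.138 ± 0.00243% and 0.143 ± 0.00116%), the libraries of the 2 lines did not overlap, and no test was run on the shares. The shares of the other 8 overlapped. mt-Nd6 is the only protein-coding gene on the opposite strand and lies across from its neighbours' transcripts, and whether counting used strand is not given in the sources used here.

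RNA of other kinds moved alongside to different degrees. Mitochondrial rRNA, which carries short poly(A) tails and was sampled by a kit for mRNA, took 0.0672 ± 0.0248% of counts in WT and 0.0728 ± 0.0113% in AS (SD, n = 3 each), with WT 1 again the lowest at 0.0387%. Of 2 long noncoding RNAs kept in the nucleus, Malat1 was at 292 ± 33.1 CPM in WT and 471 ± 119 CPM in AS (SD, n = 3 each), without overlap, and Neat1 at 97.4 ± 10.5 and 95.5 ± 29.8 CPM. Their part in the mitochondrial values was not tested.

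The 13 mitochondrial genes fell into very different levels that follow no complex. The 6 genes mt-Co1, mt-Cytb, mt-Nd1, mt-Nd2, mt-Nd4 and mt-Nd5 had between 30544 and 344735 counts in a library, and together 99.8% of the mitochondrially encoded counts. The 6 genes mt-Co2, mt-Co3, mt-Atp6, mt-Atp8, mt-Nd3 and mt-Nd4l had between 3 and 259 counts in a library and together 0.0665%. Per kilobase, mt-Co1 was at 2845 and mt-Co2 at 4.21 CPM per kilobase in WT, though both code for subunits of the same catalytic core, and mt-Atp8 was too low to be tested. Antisense mt-Nd6 lay between, at 616 to 1500 counts.

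**Figure D4:**
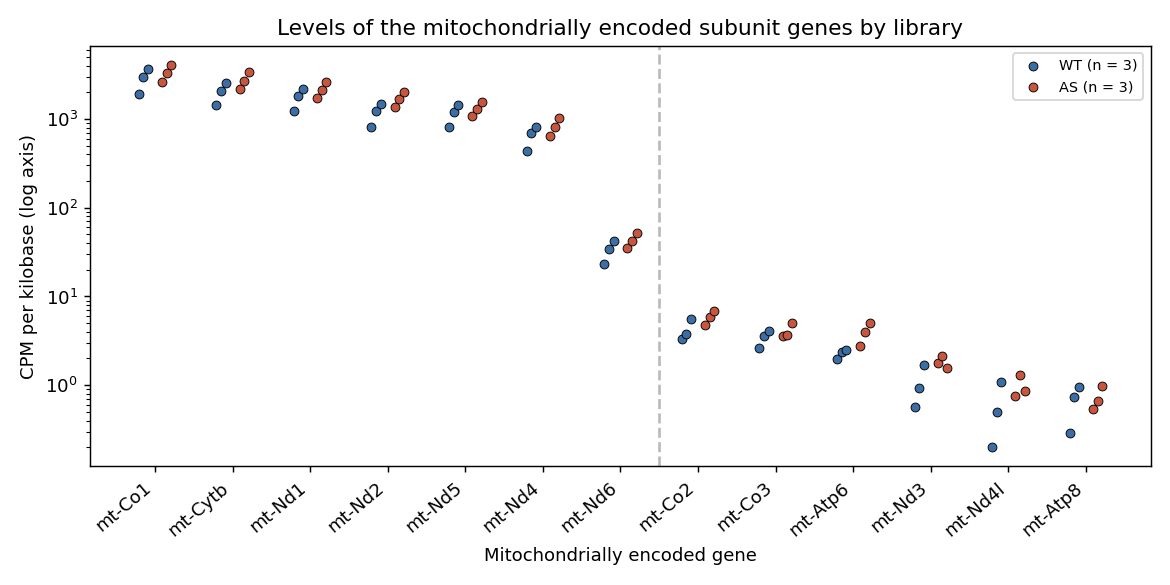
CPM per kilobase (log axis) of the 13 mitochondrially encoded genes in each of 3 WT and 3 AS libraries. The dashed line separates the genes with 259 counts or fewer in every library (right) from the others (left), and the ranges of the lines overlap except in mt-Atp6.

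Of the 6 genes with few counts, 5 have an almost identical copy on chromosome 1 over nearly their whole length. mt-Co2 matches the unprocessed pseudogene Gm28661 at 100% over 681 bases, mt-Co3 matches Gm28437 at 100% over 783 bases, mt-Atp6 matches Gm10925 at 100% over 678 bases and mt-Nd4l matches Gm10222 at 100% over 294 bases. mt-Nd3 matches Gm28438 with 1 mismatch over 345 bases. For mt-Atp8 no such annotated copy was found. mt-Nd4 has a copy of its first 876 bases, Gm28439, and its other bases have none on chromosome 1 in the annotation. mt-Co1, the most abundant member, also has close copies, Gm29216 on chromosome 1 at 99.8% identity over its last 483 bases and Gm13340 on chromosome 2 at 97.6% over all 1545 bases. mt-Cytb, with many counts, has a more distant copy on chromosome 4, Gm11410, at 92.9% identity over 1142 bases. As examples of a full, a nearly full and a more distant match, the first 120 bases of mt-Co3 and mt-Nd3 and 120 bases of mt-Cytb from its base 2 follow, each with its copy, with differing bases in capitals.
mt-Co3: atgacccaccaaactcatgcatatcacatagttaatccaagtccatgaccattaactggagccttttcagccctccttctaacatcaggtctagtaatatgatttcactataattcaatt
Gm28437: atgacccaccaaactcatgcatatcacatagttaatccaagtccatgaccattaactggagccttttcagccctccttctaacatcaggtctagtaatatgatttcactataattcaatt
mt-Nd3: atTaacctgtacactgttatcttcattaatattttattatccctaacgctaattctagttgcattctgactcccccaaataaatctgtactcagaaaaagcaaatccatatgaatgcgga
Gm28438: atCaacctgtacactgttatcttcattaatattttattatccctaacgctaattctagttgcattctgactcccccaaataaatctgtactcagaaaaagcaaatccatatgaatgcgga
mt-Cytb: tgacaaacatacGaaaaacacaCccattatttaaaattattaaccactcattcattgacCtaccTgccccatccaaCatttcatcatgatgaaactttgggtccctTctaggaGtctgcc
Gm11410: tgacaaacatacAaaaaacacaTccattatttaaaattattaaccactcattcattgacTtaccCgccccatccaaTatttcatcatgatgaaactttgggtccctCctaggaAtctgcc
Counted from 1 at the first base shown, with the mitochondrial base first, mt-Nd3 and Gm28438 differ at T3C, and mt-Cytb and Gm11410 at G13A, C23T, C60T, T65C, C77T, T107C and G114A. The stretches of mt-Co3 and Gm28437 do not differ.

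For the 5 low genes, the copies on chromosome 1 held counts in the range of the genes or above it. Gm28661 had 123 to 308 counts in a library against 114 to 259 for mt-Co2, and Gm10925 had 241 to 591 against 69 to 187 for mt-Atp6. For the genes with many counts the copies were far below the gene, with 1 to 12 counts of Gm11410 against 82905 to 214240 of mt-Cytb, 98 to 255 of Gm28439 against 30544 to 78799 of mt-Nd4, and 108 to 197 of Gm29216 and 119 to 362 of Gm13340 against 148152 to 344735 of mt-Co1. With the copies' counts added, the log2 fold change of mt-Atp6 was 0.60 (adjusted p = 0.0227, edgeR). How the counting treated reads that match both places is not given in the sources used here and was not tested. The levels of these 6 genes are therefore given only as they were counted, and no ratio is given for complex V, whose mitochondrially encoded subunits are mt-Atp6 and mt-Atp8.

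The nuclear members were also set beside the other genes of their chromosome, since the median log2 fold change of whole chromosomes differed between the lines. Over genes with a mean log2 CPM over 2, it was 0.33 on chromosome 8, 0.32 on chromosome 10, 0.21 on chromosome 15, 0.20 on chromosome 5 and 0.19 on chromosome 19, and -0.20 on chromosome 6 and -0.16 on chromosome 4. Of the 14 members that were higher, 11 lie on a chromosome with a median above 0, and of the 10 that were lower, 9 lie on one with a median below 0. In all, 32 of the 78 members lie on the former and 46 on the latter. This split takes only the sign of the median, and some medians were close to 0. The same split of all called genes is not given here, so these counts cannot be read as particular to the members. Of the lower members, 3 lie on chromosome 9 (median -0.00026) and 2 on chromosome 7 (-0.0094). Chromosome 13 (0.0065) holds 1 of the higher members.

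With the chromosome's median taken off, 7 of the 24 called members changed sign. Among them, Cox4i1 on chromosome 8 went from 0.30 to -0.03, Ndufa12 on chromosome 10 from 0.28 to -0.04 and Atp5g2 on chromosome 15 from 0.20 to -0.01. Ndufs7 on chromosome 10 went from 0.40 to 0.07. Uqcrh on chromosome 4 (-0.19 after the median), Ndufa4 on chromosome 6 (-0.19), Uqcrc1 (0.24), Uqcrb (-0.27), Cox7c (0.25) and Cox6b2 (-2.54) kept their direction. These are values without a test, and what moves whole chromosomes was not tested here.

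**Figure D5:**
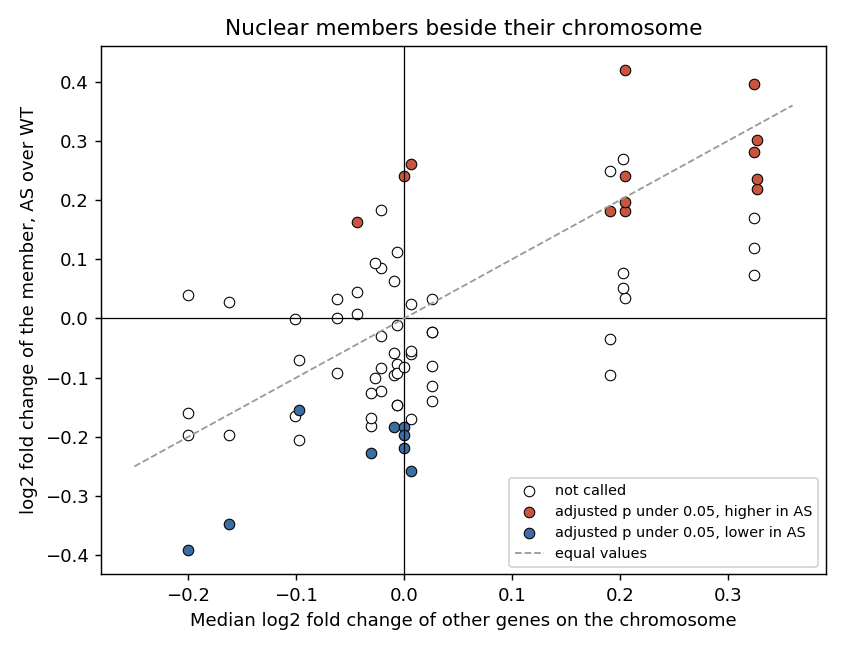
Log2 fold change of 76 nuclear members (AS over WT, without Ndufs5 and Cox6b2) against the median of other genes on the same chromosome. The dashed line marks equal values. The higher members on chromosomes 8, 10, 15 and 19 lie near or below the medians of 0.33, 0.32, 0.21 and 0.19, apart from Ndufs7 and Ndufb9, which lie above, and Uqcrc1, Cox7c and Cox7b rise without such a shift.

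Promoters of these genes share letters that are bound by known regulators of respiratory genes. RefSeq windows of 300 bases were found for 66 of the 86 nuclear members. GCGCANGCG was in 20 of them (30.3%, against 7.03% of the windows of 27025 gene symbols), CCGGAAG in 16 (24.2% against 9.93%) and AAGATGGCG in 7 (10.6% against 1.64%), while the general promoter letters CCAAT were in 43.9% against 41.1%. Among tested members with GCGCANGCG, 4 were higher and 2 lower of 20, with a median log2 fold change of -0.01. Among those without, 7 were higher and 5 lower of 43, with a median of -0.03. With CCGGAAG, 1 was higher and 3 lower of 16, and without, 10 were higher and 4 lower of 47. With AAGATGGCG, 1 was higher and 0 lower of 7, and without, 10 were higher and 7 lower of 56. Over all genes tested, 20.4% were higher and 19.6% were lower. The share called among all genes with each motif is not given here. No test was run on these counts.

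Uqcrc1 and Uqcrh are shown because they belong to the same complex and moved in opposite directions. Uqcrc1 is at chr9:108936398-108936697 on the plus strand and Uqcrh at chr4:116075021-116075320 on the minus strand of GRCm38.p6, with the same motifs in capitals.
Uqcrc1: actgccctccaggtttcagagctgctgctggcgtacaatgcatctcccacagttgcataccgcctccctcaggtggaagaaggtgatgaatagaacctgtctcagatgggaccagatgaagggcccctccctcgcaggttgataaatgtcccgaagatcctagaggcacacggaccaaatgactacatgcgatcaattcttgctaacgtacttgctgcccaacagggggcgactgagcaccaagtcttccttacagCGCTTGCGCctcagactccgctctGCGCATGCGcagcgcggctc
Uqcrh: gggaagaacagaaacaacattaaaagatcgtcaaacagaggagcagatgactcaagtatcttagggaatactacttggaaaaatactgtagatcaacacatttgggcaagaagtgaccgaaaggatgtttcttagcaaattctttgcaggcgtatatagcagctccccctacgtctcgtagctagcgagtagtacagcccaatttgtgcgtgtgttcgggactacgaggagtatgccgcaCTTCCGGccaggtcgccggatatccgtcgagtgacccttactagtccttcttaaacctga
The Uqcrc1 window held 2 matches to GCGCANGCG and none to the other letters, and the Uqcrh window held 1 match to CCGGAAG. A match shows letters only, not that a factor was bound.

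Genes that build and supply the complexes were read from lists in the same fit. Of 52 assembly factors tested, 3 were higher and 6 were lower (17.3% called, against 40.1% of all genes). Their median log2 fold change was -0.02. For complex III, the assembly factors Uqcc2 (0.41, SE 0.08) and Uqcc3 (0.41, SE 0.09) rose. Timmdc1 (-0.29, SE 0.06) and Acad9 (-0.20, SE 0.07), which assemble complex I, fell, as did Coa6 (-0.51, SE 0.10) and Cox18 (-0.44, SE 0.10) for complex IV and Atpaf1 (-0.35, SE 0.10) and Tmem70 (-0.24, SE 0.06) for complex V. Sco2, a copper chaperone of complex IV, rose by 1.15 (SE 0.39) at a mean of 0.389 CPM in WT.

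Of 38 genes for mitochondrial transcription and RNA handling, 5 were higher and 1 was lower (15.8% called, against 40.1% of all genes). Polrmt, the mitochondrial RNA polymerase, was at 28.6 ± 0.881 CPM in WT and 36.9 ± 0.271 CPM in AS (SD, n = 3 each), and the log2 fold change was 0.37 (SE 0.06, adjusted p = 0.00111, edgeR). Supv3l1, a helicase that degrades mitochondrial RNA, rose by 0.44 (SE 0.08), and both genes lie on chromosome 10. Ptcd3 on chromosome 6, which works with the mitochondrial ribosome, changed by -0.30 (SE 0.07). Of 78 mitochondrial ribosomal protein genes, 14 were higher and 10 were lower (30.8% called, against 40.1% of all genes). Those with the smallest adjusted p were Mrps12 (0.87, SE 0.09) and Mrpl3 (0.56, SE 0.07) among the higher and Mrps21 (-0.43, SE 0.08) and Mrpl53 (-0.42, SE 0.10) among the lower.

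Between the complexes, electrons travel on coenzyme Q and cytochrome c. Of 14 genes for these carriers, 1 was higher and 4 were lower (35.7% called, against 40.1% of all genes). Cycs, the gene for cytochrome c, was at 55.3 ± 4.85 CPM in WT and 44.2 ± 2.10 CPM in AS (SD, n = 3 each), and the log2 fold change was -0.32 (SE 0.08, adjusted p = 0.00794, edgeR). Coq4 fell by 0.53 (SE 0.13) and Coq9 rose by 0.30 (SE 0.08), both needed for coenzyme Q synthesis. Of the 6 tested genes for export of ATP and import of phosphate, 66.7% were called, against 40.1% of all genes. Slc25a4 (0.27, SE 0.06), the ATP/ADP exchanger, Vdac3 (0.38, SE 0.06) and Slc25a3 (0.35, SE 0.09), the phosphate carrier, rose, and Vdac1 (-0.33, SE 0.05) fell. Slc25a4 and Vdac3 lie on chromosome 8 and Slc25a3 on chromosome 10.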

How the data were processed

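RNA-seq libraries of 3 WT and 3 AS podocyte samples were compared. As counts, the authors deposited raw numbers of reads on each gene, not scaled to depth. The submitters' processing notes name FastQC, Trim Galore, STAR, edgeR and the build mm39, without versions, whereas counting tool, annotation and use of strand were not given in the sources used here. Libraries were made with an mRNA kit and 15 PCR cycles. GENCODE M21 (GRCm38) gave symbols, gene types, chromosomes and transcripts for 51880 of 57132 identifiers, and rows without a symbol held 0.363% of counts.

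Counts were tested with edgeR 4.0.16 in R 4.3.3 (filterByExpr with a minimum count of 10, TMM, quasi-likelihood test, two-sided, Benjamini-Hochberg over all genes tested). Standard errors were approximated from the F statistic, as log2 fold change over its square root. CPM were computed from TMM-scaled library sizes. Levels per kilobase used the shortest principal coding transcript. Copies were sought with blastn 2.17.0 among pseudogene transcripts (90% identity, 100 bases). The fits were tested on simulated data. An exact permutation test between groups of 3 reaches 0.10 at best, and single outlying libraries could not be tested at this group size. Counts of single genes carry counting error only to the extent that reads are independent molecules.

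The members and lists were chosen with earlier results of these data known. Mitochondrially encoded members, in each complex at most 3 members per direction with the smallest adjusted p, genes for alternative forms of a subunit, the Sdh genes, untested members and at most 2 genes per direction of each other list were named by rule. Others were named for their role or to complete a count after their values were seen. Alternatives were RLE scaling, library size only, scaling without mitochondrial genes, DESeq2 1.42.0, limma-voom 3.58.1, 2 other filters, a replicate block, each library left out, pseudogene counts added and chromosome medians taken off. The mitochondrial share without 6 low genes was added after seeing the data. No coordinates of the deposited build are given.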

Additional observations from a re-analysis of the deposited data

How the results depend on the processing

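Numbers of called members moved with the libraries used. The share of all genes called in each alternative fit is not given here, so these numbers do not set the members apart from other genes. Leaving out each library in turn gave 7 to 10 nuclear members higher (7 without WT 1 or AS 2, 9 without WT 3 or AS 1, 10 without WT 2 or AS 3) and 5 to 16 lower (16 without WT 1, 8 without AS 2, 6 without WT 2 or AS 3, 5 without WT 3 or AS 1), against 14 and 10 with all, and 0 to 3 mitochondrially encoded members higher (3 without WT 3, 2 without AS 1, 0 without each of the others). With library size only, 5 nuclear members were lower and 16 higher. Without a low-count filter 6 mitochondrially encoded members were higher. With Ndufa4 counted in complex I, 1 member of that complex was lower.

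Same-numbered WT and AS samples deviated together with correlations of 0.147, 0.0939 and 0.0526, so the numbers were not taken as pairs. With a replicate block, 18 nuclear members were higher, 15 lower, and 8 mitochondrially encoded members were higher, again without the share of all genes called in that fit.

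Directions reversed in these log2 fold changes. Leaving out each library in turn gave -0.0095 to 0.39 for mt-Nd5 and -0.00067 to 0.46 for mt-Co1 (both lowest without WT 1), -0.026 to 0.079 for Sdhb (lowest without AS 2), -0.074 to 0.00058 for Cox7a2l (0.00058 without WT 2, 0.00018 without WT 3) and -0.070 to 0.016 for Cox8a (highest without WT 2). Cox7a2l was at 0.0035 with library size only. With chromosome medians taken off, Ndufa12 was at -0.044, Cox4i1 at -0.027 and Atp5g2 at -0.0090, and with pseudogene counts added Ndufs5 was at -0.056. The cause was not tested. For Ndufs5, the added counts were those of BC002163, which changed in the opposite direction. Of 610 values of named members, 529 kept their direction and side of the threshold, 44 lost and 18 gained a call, and 8 moved by more than their standard error.

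The mitochondrial log2 ratio of 0.34 stayed above 0 with each library left out (0.12 to 0.56), with nuclear members as the denominator (0.32), without mt-Nd6, mt-Atp8 and mt-Nd4l (0.34) and without the 6 low genes (0.34).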
